A study of Mus musculus with 8 samples.

Results

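Translation initiation factor genes, here all mouse genes whose symbol starts with Eif1 to Eif6 apart from those named as pseudogenes, were followed in C2C12 myoblasts before and after differentiation. C2C12 is an immortalized mouse myoblast cell line, so the libraries stem from 1 line and not from separate animals. Myoblasts were harvested during proliferation in growth medium (GM) or after 3 days in serum-restricted differentiation medium (3d DM), and the labels name no genetic change in either state. Each state had 2 input RNA libraries and 2 libraries of fragments pulled down with an antibody against N6-methyladenosine (m6A), the methyl mark on internal adenosines of mRNA. The expression table held 57 of these genes among 27179 rows, and 53 of them were among the 11406 genes tested. The 4 peak lists, 1 for each immunoprecipitated library, held 96 m6A sites in 45 of the genes, of 19683 sites in all. A site is the union of overlapping peaks of 1 gene on 1 strand over the lists.

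Initiation factors bring the small ribosomal subunit, the initiator tRNA and the mRNA together at the start codon. The cap is bound by eIF4E, the scaffold eIF4G joins eIF4E to the helicase eIF4A, eIF2 delivers the initiator tRNA, and eIF3 holds the complex on the small subunit. The 4E-binding proteins take eIF4E away from eIF4G, and phosphorylation of eIF2 by its kinases blocks its recycling by eIF2B, so both are the classical brakes on protein synthesis. In muscle, this machinery is best known as the end point of growth signalling through mTOR.

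The input libraries carried the marks of their states, with 1 difference between the GM replicates. All 6 myotube genes examined, among them Myog and Myh3, were higher in 3d DM by limma at an adjusted p below 0.05, and all 4 genes of dividing cells, among them Mki67 and Cdk1, were higher in GM. Of the 4 myoblast genes, Des was higher in 3d DM and Myf5 was higher in GM, while Myod1 and Cdh15 did not pass the test. The summed value of the myotube genes was 4273 in GM replicate 1, 1180.3 in GM replicate 2, and 121783 and 117351 in 3d DM. The summed value of the dividing-cell genes was 9438, 12894, 1562 and 2087 in the same order. GM replicate 1 thus stood nearer to 3d DM than GM replicate 2 did in both sums. None of 8 markers of immune, endothelial, fat, epithelial, glial and neuronal cells passed the filter on low values, their summed value was 1.02 to 7.28, and 3 of them were listed at 0 in all 4 libraries. In bulk RNA, fewer cells of a type and less RNA per cell cannot be told apart. Nothing in the labels says that replicates came from separate cultures, so the p-values measure only the spread between these libraries.

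Of the 53 initiation factor transcripts, 4 passed the test of GM against 3d DM. Eif4a2, which encodes a helicase of the cap-binding complex, was higher in 3d DM. Eif5a and Eif5a2, which encode the 2 forms of the hypusine-bearing factor eIF5A, and Eif4e3, which encodes an atypical cap-binding protein, were higher in GM. In limma at an adjusted p below 0.05 over all genes, 1 of 53 was higher in 3d DM, where 12.1% of all tested genes were, and 3 of 53 were higher in GM, where 11.8% of all tested genes were. The share of these genes that passed was below that of all genes in both directions with all 4 libraries. A fit with 1 library left out has a single library in 1 state, so only its log2 differences are given in these Results. How the shares moved in such fits is described with the processing.

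Levels are given as rescaled values, that is, the deposited normalized signal divided by a median-of-ratios factor of each library. For Eif4a2 (Entrez 13682, chr16:23107468-23114132 on GRCm38), the rescaled value was 1736 and 2507 in GM against 4249 and 4046 in 3d DM. Both 3d DM libraries were above both GM libraries. The log2 difference, 3d DM minus GM, was 0.99 ± 0.23 (SE, n = 2 against 2), a 1.99-fold change, with an adjusted p of 0.0267 in limma. The call was lost on the values as deposited, where the log2 difference was 0.78, and in limma without an intensity trend. Over 12 other settings, those with 1 library left out included, the log2 difference was 0.73 to 1.26.

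For Eif5a (Entrez 276770, chr11:69916712-69921958), the rescaled value was 8397 and 12061 in GM against 5127 and 4878 in 3d DM. For Eif5a2 (Entrez 208691, chr3:28781032-28798846), it was 114 and 162 in GM against 65.4 and 61.5 in 3d DM. Both paralogues were higher in each GM library than in either 3d DM library. The log2 differences were -1.01 ± 0.25 for Eif5a (SE, adjusted p = 0.0334 in limma) and -1.09 ± 0.29 for Eif5a2 (SE, adjusted p = 0.0400 in limma). eIF5A is the only protein known to carry hypusine and helps the ribosome through stretches that are hard to translate. The call of Eif5a2 was lost on the values as deposited. Over the same 12 settings, the log2 difference was -1.27 to -0.75 for Eif5a and -1.34 to -0.84 for Eif5a2.

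For Eif4e3 (Entrez 66892, chr6:99621879-99692873), the rescaled value was 105 and 195 in GM against 47.9 and 55.8 in 3d DM. It was highest in GM replicate 2, and the states did not overlap. The log2 difference was -1.45 ± 0.36 (SE, adjusted p = 0.0327 in limma), a 2.74-fold change. Over the same 12 settings, its log2 difference was -1.90 to -1.01. None of the 4 genes changed sign in any of these settings.

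The other 49 tested genes did not pass the test, but their differences leaned to one side. Of the 53, 43 had a log2 difference below 0 and 10 above 0, and the median was -0.26, against -0.019 over all tested genes, 51.1% of which were below 0. Values of the 2 states did not overlap for 22 of 53 genes with GM higher, against 34.0% of all tested genes, and for 6 of 53 with 3d DM higher, against 32.9%. The size of the lean depended on the GM library used, and 2 libraries cannot tell which of them is typical of the state. In GM replicate 2, these genes were higher than in GM replicate 1 by a median log2 difference of 0.28. Of the 53, 42 were higher in GM replicate 2, and the median over all tested genes was 0.069. Without GM replicate 2 the median of the 53 was -0.032, and without GM replicate 1, the library with more myotube RNA, it was -0.37. Over all tested genes the medians were 0.018 and -0.031 in the same order. Either fit leaves a single GM library, so the spread between the GM replicates does not enter it, and no genes are counted as passing here. The 3d DM replicates differed by a median of -0.054 over the 53 genes. The part of the myotube and dividing-cell RNA in these differences was not tested.

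**Figure D1:**
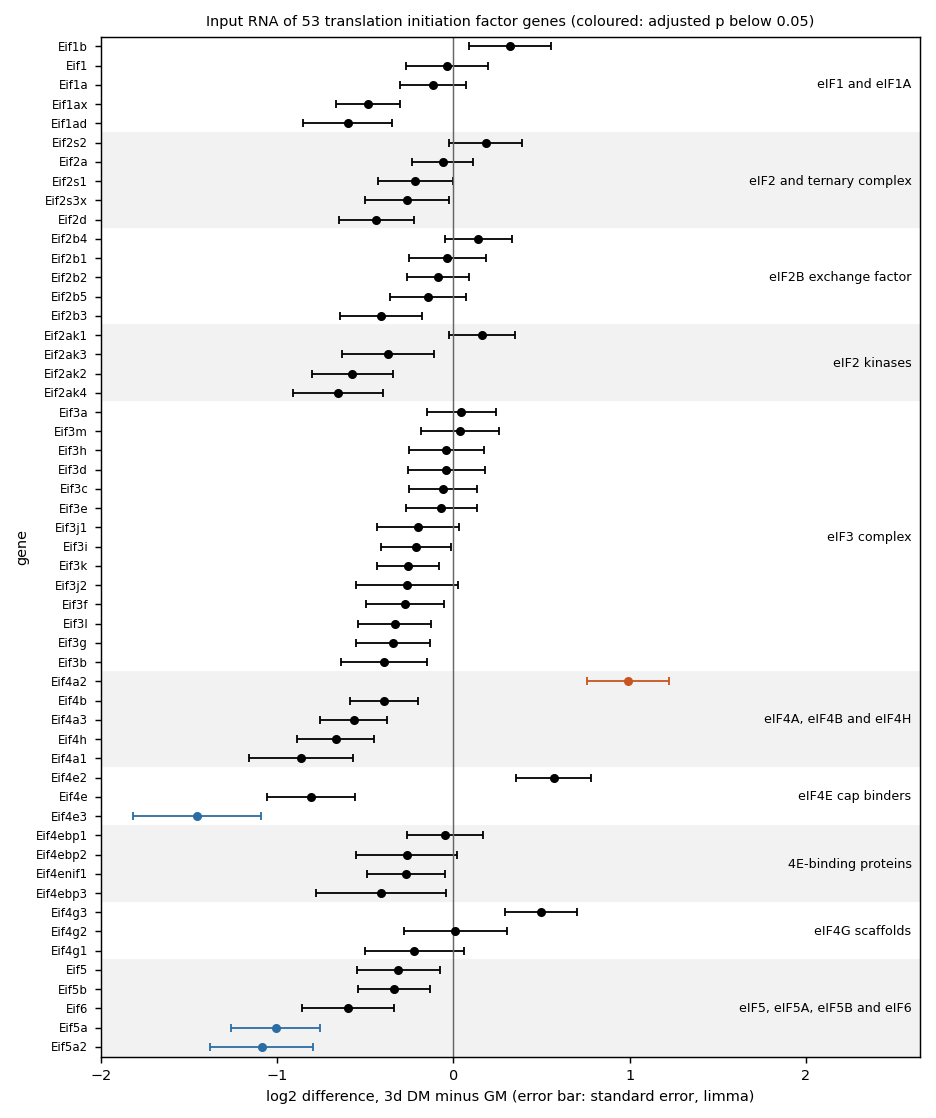
Log2 difference of input RNA, 3d DM minus GM, for the 53 tested genes grouped by role; points are limma estimates from 2 libraries a state and bars are standard errors. Eif4a2 (orange, 0.99) lies alone to the right among the genes that passed the test, Eif4e3, Eif5a and Eif5a2 (blue) lie between -1.45 and -1.01, and the 14 eIF3 genes lie between -0.39 and 0.046.

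Among the helicase genes, the 2 closely related eIF4A forms differed in opposite directions. Eif4a1 (Entrez 13681), the major form in most cells, had rescaled values of 7838 and 13125 in GM against 5428 and 5720.2 in 3d DM. Its log2 difference of -0.86 ± 0.30 (SE) did not pass the test, with an adjusted p of 0.0820 in limma. It passed on the values as deposited, with the log2 difference at -1.07. The log2 difference was -1.24 without GM replicate 1 and -0.49 without GM replicate 2. Within a library, where no scaling enters, the ratio of Eif4a2 to Eif4a1 was 0.222 and 0.191 in GM against 0.783 and 0.707 in 3d DM. The ratio was 3.62-fold higher in 3d DM, a log2 difference of 1.86 with a pooled replicate SD of 0.13. Levels per kilobase of exon use the joined exons of all annotated transcripts of a gene. Joined exons can be longer than the mRNA present, so different genes compare only roughly on this scale. The level of Eif4a1 was 2418 in GM and 1286 in 3d DM, and that of Eif4a2 was 397 and 777. Eif4a1 thus remained the higher of the pair in both states on this scale.

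Eif4a3, which encodes the exon junction complex helicase and is not an eIF4F subunit, had values of 1361 and 1619 in GM against 1065 and 944 in 3d DM, and its log2 difference of -0.56 ± 0.19 (SE) had an adjusted p of 0.0769 in limma. The helicase cofactors had differences of the same sign. For Eif4h the log2 difference was -0.67 ± 0.22 (SE, adjusted p = 0.0737 in limma), and for Eif4b it was -0.40 ± 0.19 (SE, adjusted p = 0.185 in limma). The GM libraries were above the 3d DM libraries for all 3 of these genes, as for 34.0% of all tested genes, and none passed the test.

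The cap-binding genes also had differences of both signs. For Eif4e (Entrez 13684), the general cap-binding factor, rescaled values were 1153 and 1794 in GM against 767 and 879 in 3d DM. For Eif4e2 (Entrez 26987), which encodes the repressive cap-binding protein 4EHP, they were 1383 and 1108 in GM against 2065 and 1634 in 3d DM. The states did not overlap for either gene, and they differed in opposite directions. Of all tested genes, 34.0% did not overlap with GM higher and 32.9% with 3d DM higher. The log2 differences were -0.81 ± 0.25 for Eif4e (SE, adjusted p = 0.0630 in limma) and 0.57 ± 0.21 for Eif4e2 (SE, adjusted p = 0.104 in limma), so neither passed. Without GM replicate 1 the log2 differences were -1.13 for Eif4e and 0.73 for Eif4e2. Without GM replicate 2 the difference of Eif4e was -0.49. The ratio of Eif4e2 to Eif4e within a library was 1.20 and 0.617 in GM against 2.69 and 1.86 in 3d DM, with a log2 difference of 1.38 and a pooled replicate SD of 0.55. The ratio of Eif4e3 to Eif4e was 0.0912 and 0.109 in GM against 0.0625 and 0.0635 in 3d DM. Eif4e1b, the germline form, was listed at 0 in all 4 libraries.

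**Figure D2:**
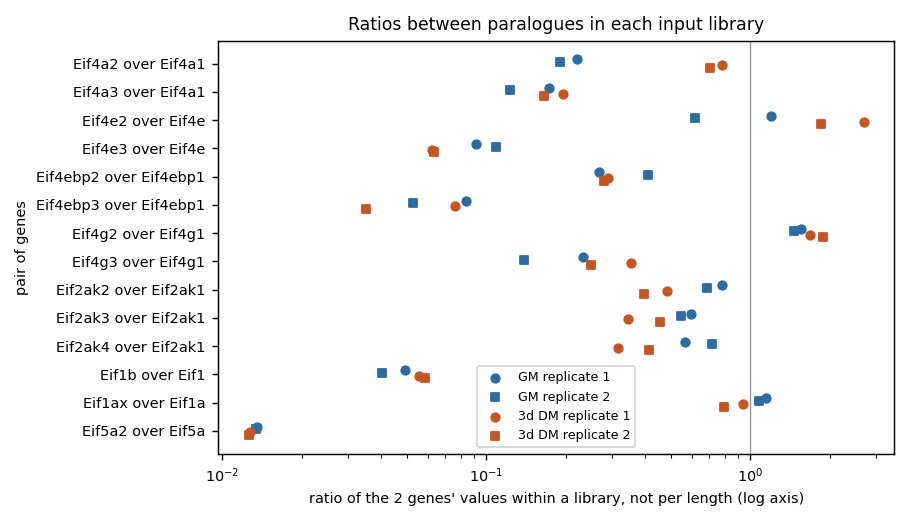
Ratio of the rescaled values of 2 related genes in each of the 4 input libraries, on a log axis and not corrected for gene length. The ratio of Eif4a2 to Eif4a1 lies at 0.191 and 0.222 in GM and at 0.707 and 0.783 in 3d DM, and that of Eif5a2 to Eif5a between 0.0126 and 0.0136 in all libraries; the states do not overlap for 11 of the 14 pairs, these 2 included.

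None of the 3 scaffold genes passed the test. Eif4g1, the main eIF4G, had values of 4609 and 7514 in GM against 4877 and 5232 in 3d DM, and its log2 difference was -0.22 ± 0.28 (SE). Eif4g2, which encodes the scaffold DAP5 that lacks the eIF4E-binding region, had a log2 difference of 0.012 ± 0.29 (SE), which fell below 0 with trimmed-mean factors and on the values as deposited. Eif4g3, the third scaffold, had values of 1072 and 1049.7 in GM against 1730.2 and 1301 in 3d DM. Its log2 difference of 0.50 ± 0.20 (SE) had an adjusted p of 0.127 in limma, with both 3d DM libraries above both GM libraries. The ratio of Eif4g3 to Eif4g1 was 0.233 and 0.140 in GM against 0.355 and 0.249 in 3d DM.

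None of the genes for 4E-binding proteins passed the test, and in each of them the states overlapped. Eif4ebp1, the best studied target of mTOR among them, had values of 1243 and 1295 in GM against 1039 and 1449 in 3d DM, with a log2 difference of -0.048 ± 0.22 (SE). Eif4ebp2 had a log2 difference of -0.27 ± 0.29 (SE), Eif4ebp3 of -0.41 ± 0.37 (SE), and Eif4enif1, which encodes the shuttling protein 4E-T, of -0.27 ± 0.22 (SE). The lowest adjusted p of the group was 0.414 in limma.

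**Figure D3:**
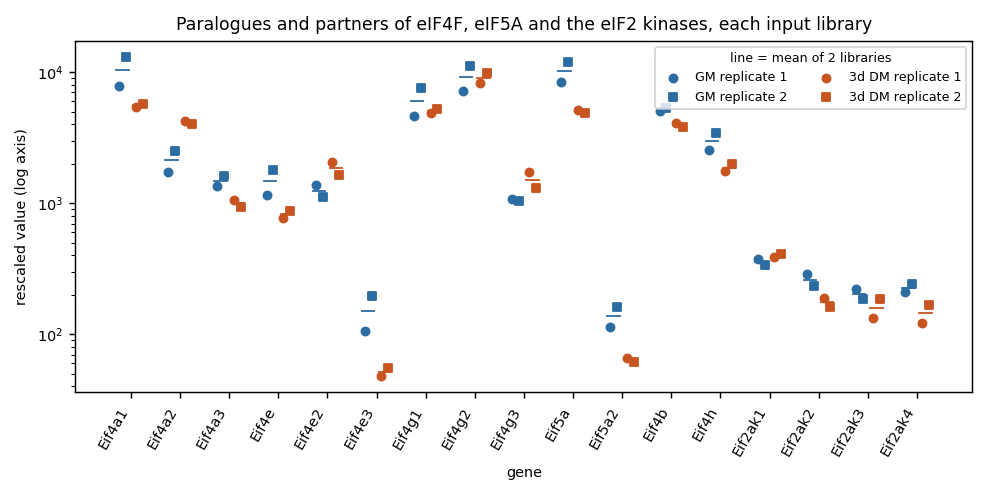
Rescaled value of 17 genes in each input library on a log axis, with lines at the mean of the 2 libraries of a state. Eif4a2, Eif4e2 and Eif4g3 have both 3d DM points above both GM points, and Eif4a1, Eif4e, Eif4e3, Eif5a and Eif5a2 have both GM points above both 3d DM points.

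None of the 5 tested genes of eIF2 and its relatives that load the initiator tRNA passed the test. For the eIF2 subunits, the log2 differences were -0.22 ± 0.21 for Eif2s1 (SE), 0.18 ± 0.21 for Eif2s2 (SE) and -0.26 ± 0.24 for Eif2s3x (SE). In all 3 the states overlapped. The Y-linked copy Eif2s3y was listed at 0 in all 4 libraries. Eif2d, which encodes a non-canonical tRNA-binding factor, had values of 267 and 281 in GM against 187 and 219 in 3d DM, and its log2 difference of -0.44 ± 0.21 (SE) had an adjusted p of 0.182 in limma. Eif2a, which encodes a further tRNA-binding factor, had a log2 difference of -0.061 ± 0.17 (SE). The 5 genes of eIF2B, the exchange factor of eIF2, had log2 differences from -0.41 for Eif2b3 to 0.14 for Eif2b4, with a lowest adjusted p of 0.243 in limma. For Eif2b4 and Eif2s2 the difference fell below 0 on the values as deposited.

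Of the 4 eIF2 kinase genes, 3 had lower means in 3d DM. Eif2ak1, the heme-regulated kinase, had values of 372 and 339 in GM against 388 and 408 in 3d DM. Eif2ak2, the kinase PKR that senses double-stranded RNA, had values of 291 and 232 in GM against 188 and 162 in 3d DM. Eif2ak4, the amino acid sensor GCN2, had values of 211 and 243 in GM against 122 and 169 in 3d DM. The libraries of the 2 states did not overlap for any of these, with 3d DM higher for Eif2ak1 and GM higher for the others. These 2 classes held 32.9% and 34.0% of all tested genes. The log2 differences were 0.16 ± 0.19 for Eif2ak1 (SE, adjusted p = 0.570 in limma), -0.57 ± 0.23 for Eif2ak2 (SE, adjusted p = 0.123 in limma) and -0.66 ± 0.26 for Eif2ak4 (SE, adjusted p = 0.113 in limma). For Eif2ak3, the endoplasmic reticulum kinase PERK, the values were 223 and 186 in GM against 133 and 186 in 3d DM, GM replicate 2 lying above 3d DM replicate 2 by less than 1, and the log2 difference was -0.37 ± 0.26 (SE, adjusted p = 0.345 in limma). No kinase gene passed the test, and on the values as deposited the difference of Eif2ak1 was -0.044. The ratio to Eif2ak1 within a library was 0.781 and 0.685 in GM against 0.484 and 0.398 in 3d DM for Eif2ak2, and 0.566 and 0.718 in GM against 0.315 and 0.414 in 3d DM for Eif2ak4.

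None of the 5 tested genes of the start-codon factors eIF1 and eIF1A passed the test. Eif1, which scans for the start codon, had values of 4726 and 5043 in GM against 5602 and 4048 in 3d DM, so its states overlapped. Its copy Eif1b had values of 232 and 204 in GM against 312 and 237 in 3d DM, and the log2 difference was 0.32 ± 0.23 (SE, adjusted p = 0.356 in limma). Eif1ax had values of 1138 and 1298 in GM against 925 and 817 in 3d DM, with a log2 difference of -0.48 ± 0.18 (SE, adjusted p = 0.107 in limma), while the autosomal Eif1a had a log2 difference of -0.12 ± 0.19 (SE). Eif1ad, which encodes a protein with an eIF1A-like domain, had a log2 difference of -0.60 ± 0.25 (SE, adjusted p = 0.135 in limma). Eif1a and Eif1ax encode nearly the same protein. How reads that fit both genes were counted is not given in the sources used here, so the split between them is uncertain, as it is for Eif3j1 and Eif3j2 and for Eif4a3 and the intronless Eif4a3l1, which was below the filter.

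None of the 14 tested genes of eIF3, the largest initiation factor, passed the test. Their log2 differences ran from -0.39 for Eif3b to 0.046 for Eif3a with a median of -0.21, and the lowest adjusted p was 0.276 in limma. Values did not overlap for 4 of the 14, Eif3b, Eif3g, Eif3k and Eif3l, with GM higher in each, where 34.0% of all tested genes were in this class. In GM, the value per kilobase of exon ran from 150.0 for Eif3j1 to 1656 for Eif3h. For Eif3a, the RNA-binding subunit, rescaled values were 4379, 4868, 4789 and 4743 in GM replicates 1 and 2 and 3d DM replicates 1 and 2, so the states overlapped.

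The genes Eif5, Eif5b (subunit joining) and Eif6 (anti-association) were lower in 3d DM on average without passing the test. The log2 differences were -0.31 ± 0.24 for Eif5 (SE), -0.34 ± 0.21 for Eif5b (SE) and -0.60 ± 0.26 for Eif6 (SE). Eif6 had values of 827 and 1319 in GM against 643 and 741 in 3d DM, with an adjusted p of 0.146 in limma. Eif2c5, which matches the symbol rule but is annotated as a long non-coding RNA and not as an initiation factor, was listed at 0 in all libraries.

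The ratio comparisons were made for 14 pairs, chosen after the values were known. With 2 libraries a state, the exact permutation test cannot give a p below 0.333, a value reached by all 11 pairs whose states did not overlap (exact permutation test, two-sided), and their Benjamini-Hochberg value over the 14 pairs was 0.424. The test therefore sets none of these 11 apart from the others. The states overlapped for Eif4a3 to Eif4a1, Eif4ebp2 to Eif4ebp1 and Eif4ebp3 to Eif4ebp1.

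Genes that work beside the initiation factors were compared in the same fit. Of 18 partners of the cap, the poly(A) tail and the start codon, Pdcd4, an inhibitor of eIF4A, was higher in 3d DM with a log2 difference of 1.88 ± 0.51 (SE, adjusted p = 0.0428 in limma). Pabpc1, the major poly(A)-binding protein that contacts eIF4G, was higher in GM with a log2 difference of -1.54 ± 0.23 (SE, adjusted p = 0.00626 in limma), and Bzw2, an eIF5 mimic, was higher in GM with -1.19 ± 0.21 (SE, adjusted p = 0.0112 in limma). The other 15 did not pass, and the median of the 18 was 0.13. For Pdcd4, the values were 188 and 59.1 in GM against 431 and 355 in 3d DM, so GM replicate 1 lay between GM replicate 2 and the 3d DM libraries. For Pabpc1, they were 16956 and 18505 in GM against 6431 and 5753 in 3d DM.

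Of 12 tested elongation and release factor genes, 1 passed, Eefsec, the selenocysteine elongation factor, with a log2 difference of -1.19 ± 0.27 (SE, adjusted p = 0.0226 in limma), and the median was -0.38. Eef1a2, the muscle and nerve form of eEF1A, was below the filter, with values of 0 in both GM libraries and 0.0973 and 1.36 in 3d DM. Of 11 genes of the integrated stress response, the programme that follows phosphorylation of eIF2, 1 passed, Nupr1, with a log2 difference of 1.21 ± 0.24 (SE, adjusted p = 0.0161 in limma), and this call was lost on the values as deposited. Atf4, the central factor of that response, had a log2 difference of 0.34 ± 0.34 (SE, adjusted p = 0.504 in limma).

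The m6A lists marked most initiation factor genes. Of the 57 genes, 33 had a peak in all 4 lists, 12 in 1 to 3 lists and 12 in none. Among the tested genes, 33 of 53 had a peak in every list, against 42.0% of all tested genes. The median of the mean value was 1045 for the 53 genes and 285 over all tested genes, and the part of this higher level in the share of marked genes was not tested. The tested genes without a peak were Eif1ax, Eif2b3, Eif3f, Eif3i, Eif3k, Eif4e3, Eif4ebp3 and Eif5a2. Eif4e3 and Eif5a2, 2 of the 4 genes whose RNA passed the test, thus had no peak in either state. Their mean values were low, at 150 in GM and 51.9 in 3d DM for Eif4e3, and 138 and 63.5 for Eif5a2. The part of this low level in the absence of peaks was not tested. Eif5a had 1 site in all 4 lists and 1 in a single list, and Eif4a2 had 1 site in 3 lists and 1 in a single list.

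The number of these genes with a peak was 43 and 41 in GM against 40 and 39 in 3d DM. The mean was 42 ± 1.41 in GM and 39.5 ± 0.707 in 3d DM (SD, n = 2), so GM was higher by 2.5 genes. The two-sided exact permutation test gave p = 0.333, the smallest that this design allows. Counting only peaks with a fold enrichment of at least 4, the numbers were 21 and 14 in GM against 17 and 17 in 3d DM. Of the 96 sites, 43 were called in all 4 lists, against 30.8% of all sites, and 23 in 1 list only.

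Most sites lay in 3′UTRs and coding sequences. By the authors' region labels, 65 of 96 touched the 3′UTR (67.7%, against 56.7% of all sites), 57 the coding sequence (59.4% against 66.7%) and 12 the 5′UTR, against 6.62% of all sites. Of the 86 sites that could be placed on a transcript with a coding sequence, 20 had their middle within 200 nt of its end, which is 23.3%, against 23.7% of all placed sites. A site can touch more than 1 region, and its middle is that of its peak of lowest p. The median exonic length of a site was 370 nt for these genes and 269 nt for all genes, and its part in these shares was not tested.

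**Figure D4:**
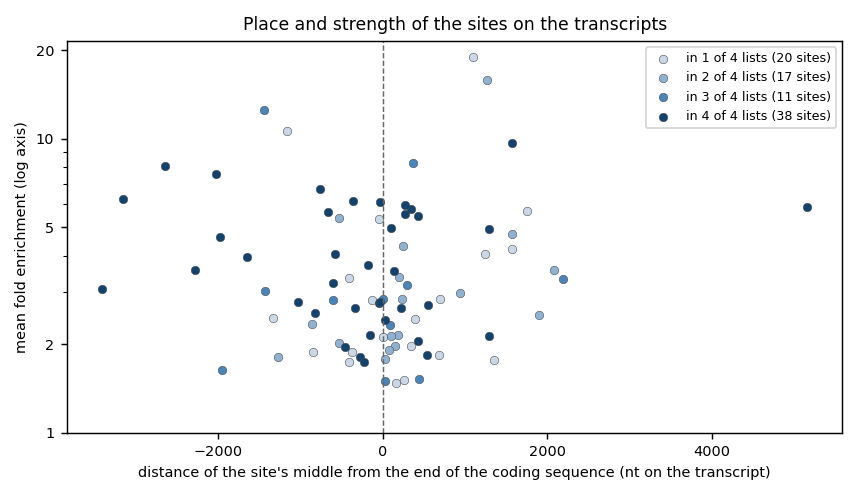
Mean fold enrichment over input of the 86 placed sites (log axis) against the distance of the site's middle from the end of the coding sequence on the transcript, shaded by the number of lists with a peak. Of these sites, 20 lie within 200 nt of the dashed line, and sites of high fold lie on both sides of it.

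The sites of highest mean fold among those in all 4 lists were in Eif2ak2, Eif1a, Eif5b, Eif3b and Eif2ak3. The writer complex methylates the adenosine in GGAC, most often in GGACT. Sequence is therefore shown around the copy of that motif nearest the middle of each site, within the site's peak of lowest p. It is given 5′ to 3′ on the transcript strand with the motif in capitals, read from GENCODE M21 transcripts on GRCm38. Each stretch was cut around a copy of the motif, so the motif's presence in it is by choice and no result. Within 100 nt of the middle, the Eif2ak2 site held GGACT, while the Eif5b, Eif3b and Eif2ak3 sites did not. The Eif1a site is not shown, since its transcript was not in GENCODE M21. The stretch of Eif2ak2 is in the 3′UTR (chr17:78853493-78853521, minus strand). Those of Eif5b (chr1:38019463-38019491), Eif3b (chr5:140425290-140425317) and Eif2ak3 (chr6:70892688-70892812) are in coding sequences, all on the plus strand. The peak of lowest p of the Eif3b site held GGAC but no GGACT.
Eif2ak2: cagccaaccactGGACTgagtgtggggtc
Eif5b: tgacactcagagGGACTcctgacacagga
Eif3b: gcctcaggaagcGGACgggattgactcg
Eif2ak3: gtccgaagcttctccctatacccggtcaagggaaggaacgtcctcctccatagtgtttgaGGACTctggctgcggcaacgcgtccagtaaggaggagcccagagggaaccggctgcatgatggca

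The Eif2ak2 site had folds of 9.1 and 8.31 in GM against 6.75 and 14.6 in 3d DM. The Eif5b site, which runs from the 5′UTR into the coding sequence, had folds of 10.1 and 5.48 in GM against 8.12 and 8.55 in 3d DM. In both, the states overlapped. The Eif3b site had folds of 3.8 and 19.6 in GM against 2.82 and 4.08 in 3d DM, so its rank rested on GM replicate 2. The Eif2ak3 site had folds of 4.59 and 4.54 in GM against 4.54 and 13.4 in 3d DM, so its rank rested on 3d DM replicate 2. The 3′UTR site of Eif1a had folds of 6.07 and 5.75 in GM against 7.41 and 13.4 in 3d DM, with both 3d DM folds above both GM folds.

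GGACT was in the 201 nt around the middle of 22 of 79 sites of these genes (27.8%), against 24.3% of 17603 sites of all genes. Its reverse complement AGTCC, which stands for GGACT on the other strand, was in 17.7% and 17.3%. The shorter GGAC, which every GGACT contains, was in 54.4% and 61.7%, and its reverse complement GTCC in 46.8% and 45.5%.

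A site called in both lists of 1 state and in neither of the other was rare. This held for 2 of 96 sites with GM, against 3.83% of all sites, and for 5 of 96 with 3d DM, against 2.70%. For scale, 5 sites were called in both replicates numbered 2 and no other list, and 3 in both numbered 1, pairs that mix the states. The GM sites were in the 3′UTR of Eif2d, with folds of 11.4 and 20.3, and in the 5′UTR and coding sequence of Eif6, with folds of 2.01 and 2.69. The input RNA of both genes was lower in 3d DM on average without passing the test, and its part in the missing peaks was not tested. The 3d DM sites were all in 3′UTRs, with folds of 1.44 and 2.87 in Eif2s2, 2.12 and 5.01 in Eif2s3x, 1.68 and 3.34 in Eif4g2, and 1.98 and 3.99 and 6.14 and 3.34 at 2 places in Eif4e2.

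The sequences below are from the sites called in 1 state whose peak of lowest p held a GGACT. They are shown since Eif4e2 was the only gene with more than 1 such site. They are Eif4e2 a (chr1:87238635-87238663, plus strand, 3′UTR), Eif4e2 b (chr1:87239414-87239442, plus strand, 3′UTR) and Eif6 (chr2:155826575-155826603, minus strand, 5′UTR). The peaks of lowest p of the Eif2d, Eif2s2, Eif2s3x and Eif4g2 sites held no GGAC.
Eif4e2 a: cccatgtgagcaGGACTtgtgtggtgagc
Eif4e2 b: gagcagacatttGGACTtgccttcctttg
Eif6: cgcagggcgagaGGACTtggggcaggaga

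Eif4e2 held 8 of the 96 sites, the most of any of these genes. Its site in the 5′UTR and coding sequence was in all 4 lists, with folds of 3.71 and 2.19 in GM against 6.35 and 3.97 in 3d DM, both above GM. Its 3′UTR held the pair of 3d DM sites above and a further site with folds of 6.41 in GM replicate 1 and 2.2 in 3d DM replicate 1 and no peak in the other lists. Another 3′UTR site had folds of 1.52 in GM replicate 2 and 2.75 in 3d DM replicate 2, and 1 had 1.76 in 3d DM replicate 1 alone. Of the sites in both coding sequence and 3′UTR, 1 had folds of 2.08 in GM replicate 2 and 1.75 in 3d DM replicate 2. The other had 2.11 in GM replicate 2 alone. The rescaled RNA value of Eif4e2 was also higher in 3d DM, and its part in the number of peaks was not tested.

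At the 43 sites in all 4 lists, the libraries' median folds overlapped between the states. The median fold was 4.02 and 3.07 in GM against 3.17 and 3.63 in 3d DM (exact permutation test on the median log2 folds, two-sided, p = 1). The median log2 difference, 3d DM minus GM, was 0.060 over these sites, with 27 of 43 above 0, and -0.11 over the 6055 such sites of all genes, whose median folds of 4.50 to 5.41 were higher. Both 3d DM folds were above both GM folds at 5 of 43 sites, against 9.13% of all such sites, in Eif1, Eif1a, Eif3g, Eif4e and Eif4e2. Both GM folds were above both 3d DM folds at 4 of 43 sites, against 21.8%, in Eif2ak1, Eif4ebp2 and at 2 sites of Eif4g3. The Eif2ak1 site had folds of 7.6 and 6.49 in GM against 4.51 and 4.49 in 3d DM, and the site at the end of the Eif4g3 coding sequence had 6.56 and 6.55 in GM against 4.14 and 4.59 in 3d DM. The Eif4e site had 1.95 and 2.11 in GM against 2.69 and 2.89 in 3d DM.

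**Figure D5:**
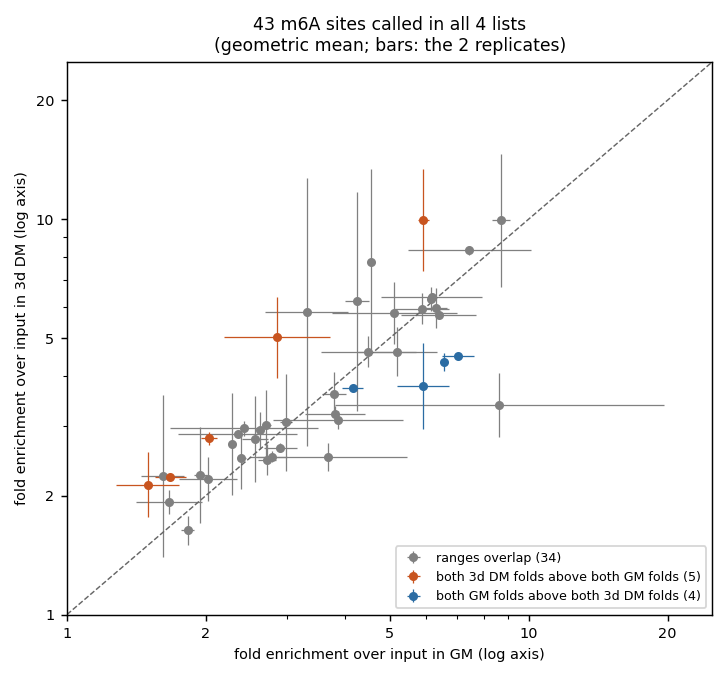
Fold enrichment over input at the 43 sites called in all 4 lists, GM against 3d DM on log axes; points are geometric means and bars span the 2 replicates of a state. Grey points (34) have overlapping ranges, 5 orange points lie above the dashed line of equality and 4 blue points lie below it with no overlap.

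Among the genes whose RNA passed the test, Eif5a and Eif4a2 had weak peaks. Eif5a had a 3′UTR site with folds of 2.73 and 2.39 in GM against 2.16 and 3.58 in 3d DM, and a second one with a fold of 1.51 in GM replicate 2 alone. Eif4a2 had a site at the end of the coding sequence with folds of 1.58 in GM replicate 1 and 1.36 and 1.55 in 3d DM, and a 3′UTR site with a fold of 2.84 in GM replicate 1 alone. Eif4a1 had a 3′UTR site with folds of 1.45 and 1.79 in GM against 1.40 and 3.59 in 3d DM. In every list in which they were called, these sites of the 3 genes lay below the list's median fold over the 43 shared sites.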

How the data were processed

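Immunoprecipitated and input libraries of C2C12 cells were grouped by their labels, and none was left out. The authors aligned reads to mm10 with HISAT2 2.1.0 and ran exomePeak for each immunoprecipitated library and its input. In the lists deposited by the authors, exomePeak gave each peak a p-value and a fold enrichment over input RNA. In the table deposited by the authors, a normalized signal was computed from gene counts with edgeR, under a column name that refers to TMM. Column sums of that table are nearly equal and are no depth, and 1 entry without a symbol took 24.4% to 41.3% of them. Its low values follow no common step. Depth is therefore unknown, and no counting error is given. The values resemble pseudo-counts adjusted within a state, which can alter the spread between replicates.

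RefSeq symbols were found for 98.7% of tested Entrez identifiers. Values were divided by median-of-ratios factors (0.784 to 1.20). Without this step the median log2 difference over all tested genes was -0.22, a shift of 0.20. Genes reaching 2 cpm of a column's sum in 2 or more libraries were tested with limma 3.58.1 (R 4.3.3) with a trend on mean intensity, after adding 1 and taking log2, which understates changes of low genes, and p-values were adjusted by the Benjamini-Hochberg method. The study's methods ask for 3 libraries, which was run as an alternative. The script was tested on data simulated with a spread taken from these libraries. It called 31 of 100 planted 2-fold changes and 91 of 100 planted 4-fold changes. A gene that did not pass the test may therefore still differ between the states. Peaks of 1 gene that share at least 1 bp were joined into sites, with a list's highest fold as its value. Exon lengths and positions came from GENCODE M21 on GRCm38. Genes and sites were named where they passed the test, were among the 5 largest differences each way, belonged to a paralogue set, were called in both lists of 1 state only, or were among the 5 shared sites of highest mean fold. Members, lists and tests were chosen with earlier results of these data known, and the paralogue ratios after the values were seen.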

Additional observations from a re-analysis of the deposited data

How the results depend on the processing

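Of the initiation factor genes, 1 was called higher in 3d DM and 3 higher in GM. These numbers were 0 and 3 on the values as deposited, 0 and 3 in limma without the trend, and 2 and 6 with the replicate number as a replicate block, which added Eif4e2 higher in 3d DM (adjusted p = 0.0485 in limma) and Eif4a1 (0.0401), Eif4e (0.0199) and Eif4h (0.0359) higher in GM. Leaving out 1 library gave 0 to 2 genes higher in 3d DM and 0 to 19 higher in GM, 19 without GM replicate 1 and 0 without either 3d DM library. The other filters, pseudocounts and trimmed-mean factors left both numbers as they were. Without GM replicate 1, the share of these genes called higher in GM was above that of all tested genes. The lower share seen with all 4 libraries thus did not hold in that fit. It has a single GM library, so the spread between the GM replicates does not enter it, and no conclusion is drawn from its numbers called. Over all tested genes, 1377 were called higher in 3d DM and 1341 higher in GM. These totals were 800 and 1136 on the values as deposited, 1204 and 1146 without the trend, and 1730 and 1784 with the replicate block. Both totals thus fell on the values as deposited and without the trend, and rose with the replicate block. Moves of the numbers called were therefore not limited to the initiation factor genes. The replicates share only a number, and their differences (replicate 2 minus 1) in GM and 3d DM had a Pearson r of 0.29 across genes. The median log2 difference of these genes was -0.47 on the values as deposited and -0.37 to -0.032 with 1 library left out. The surplus of GM over 3d DM in genes with a peak was 0.5 with folds of at least 4, and 3 and 2 within the replicate numbers (the replicate block). The median log2 fold difference at shared sites was -0.18 to 0.19 with 1 list left out, so its sign rested on single lists. The number of stress response genes higher in 3d DM was 0 on the values as deposited. The cause of these changes was not tested. Depth is unknown and sets no stated limit here.

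On the values as deposited, the log2 difference turned to -0.044 for Eif2ak1, -0.063 for Eif2b4, -0.023 for Eif2s2, -0.16 for Eif3a, -0.17 for Eif3m and -0.19 for Eif4g2, and with trimmed-mean factors to -0.012 for Eif4g2. With 1 library left out, it turned for 16 genes, none of which had passed the test, with ranges of -0.27 to 0.20 for Eif1, -0.26 to 0.024 for Eif1a, -0.26 to 0.19 for Eif2b1, -0.37 to 0.085 for Eif2b5, -0.53 to 0.0078 for Eif2s3x, -0.031 to 0.12 for Eif3a, -0.18 to 0.062 for Eif3c, -0.25 to 0.17 for Eif3d, -0.25 to 0.12 for Eif3e, -0.22 to 0.14 for Eif3h, -0.68 to 0.15 for Eif3j2, -0.22 to 0.29 for Eif3m, -0.29 to 0.19 for Eif4ebp1, -0.60 to 0.072 for Eif4ebp2, -0.57 to 0.13 for Eif4g1 and -0.30 to 0.33 for Eif4g2. The log2 ratio difference turned for Eif4ebp2 to Eif4ebp1 (-0.53 to 0.091) and for Eif4ebp3 to Eif4ebp1 (-0.93 to 0.20).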
